A study of Mus musculus with 4 samples.

Results

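Centromere and kinetochore genes were taken as every gene whose symbol begins with Cenp together with 25 listed symbols of the kinetochore, the spindle checkpoint and centromere cohesion. The rule gave 43 genes, 18 by the Cenp prefix and 25 by the list, of the 18298 genes that had a read in at least 1 sample. The rule used symbols and no measured value. All 43 genes had reads in all 4 samples and all 43 passed the filter on low counts, so none is missing from what follows.

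The samples were primary rib chondrocytes, the cells that make cartilage, isolated from E18.5 C57BL/6 embryos and sequenced at passage 1. The 2 mutant samples carried Dermo1-Cre;Senp6f/f and the 2 control samples carried Senp6f/f alone, so all 4 samples shared the floxed alleles and the controls had no Cre. The Dermo1 (Twist2) locus drives Cre in the mesenchymal progenitors that give bone and cartilage, and cells of other lineages in the culture keep Senp6. Polyadenylated RNA was sequenced, and neither the labels nor the methods say whether replicates came from separate embryos or cultures, so p values measure only the spread between these samples. The paper did not separate embryos by sex, and Xist reads, given with Cenpi below, differed between the mutant replicates. In bulk RNA of this kind, fewer dividing cells and less RNA per dividing cell cannot be told apart.

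The kinetochore is the protein assembly that forms on centromeric chromatin and holds the microtubules of the spindle. Chromatin containing the histone variant CENP-A recruits the constitutive centromere-associated network (CCAN), on which the KNL1, MIS12 and NDC80 complexes are built, and the spindle checkpoint proteins signal from unattached kinetochores. SENP6 is a SUMO protease that trims chains of SUMO2 and SUMO3 from proteins, and it is known to keep CCAN proteins such as CENP-H and CENP-I at the centromere. That known action is on proteins, whereas the files hold transcript levels only. Most kinetochore genes are transcribed in the late cell cycle, and many of their promoters carry a CHR element, a CCAAT box or an E2F site, the letters through which the DREAM and B-MYB complexes, NF-Y and the E2F factors act.

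The promoter sequences of 39 of the 43 genes were found in the RefSeq table (GRCm38.p6), which holds 250 bases before and 50 bases after each transcription start. Nsl1, Ska1, Spc24 and Zwilch had no entry. Each window was searched on both strands for the CHR letters TTTGAA and TTCGAA, for CCAAT, and for the E2F letters TTTCCCGC, TTTCGCGC, TTTGCCGC and TTTGGCGC. The CHR letters were in 21 of the 44 member promoters (47.7%), against 19.2% of all 32851 promoters of that length. CCAAT was in 28 of the 44 (63.6%), against 37.4% of all promoters. The E2F letters were in 5 member promoters (11.4%), against 2.26%, and CHR together with CCAAT was in 16 (36.4%), against 7.52%. Many of those promoters belong to genes that were not tested here. Counted by gene against the 11153 tested genes in that table, E2F letters were in 12.8% of the 39 members against 4.57%. CCAAT was in 61.5% against 42.7%, CHR in 51.3% against 16.3%, and CHR with CCAAT in 38.5% against 6.75%. A match of letters is a description and not a binding site.

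The 6 promoters below are of members that are followed through the results: Cenpm and Pmf1 were the lower in both mutant samples, Zwint, Cenpa and Cenpf the higher, and Bub1 is a checkpoint gene whose level separated the control samples. They are printed 5′ to 3′ on the strand of the gene, with the searched letters in capitals where they occur on either strand. The windows are Cenpm at chr15:82244287-82244586 (minus strand), Pmf1 at chr3:88410348-88410647 (minus), Zwint at chr10:72654596-72654895 (plus), Cenpa at chr5:30666636-30666935 (plus), Cenpf at chr1:189688037-189688336 (minus) and Bub1 at chr2:127831810-127832109 (minus).
Cenpm: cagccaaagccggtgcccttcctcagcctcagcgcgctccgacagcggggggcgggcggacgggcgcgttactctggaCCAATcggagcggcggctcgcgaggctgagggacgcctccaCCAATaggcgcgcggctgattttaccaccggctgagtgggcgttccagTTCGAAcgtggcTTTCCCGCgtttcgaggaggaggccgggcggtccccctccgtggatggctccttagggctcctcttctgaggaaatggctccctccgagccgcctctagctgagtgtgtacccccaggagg
Pmf1: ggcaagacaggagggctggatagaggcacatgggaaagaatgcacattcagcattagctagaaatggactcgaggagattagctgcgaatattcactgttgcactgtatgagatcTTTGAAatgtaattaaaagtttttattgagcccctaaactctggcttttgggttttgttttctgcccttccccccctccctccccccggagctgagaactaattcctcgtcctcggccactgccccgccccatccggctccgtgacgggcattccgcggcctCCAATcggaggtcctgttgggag
Zwint: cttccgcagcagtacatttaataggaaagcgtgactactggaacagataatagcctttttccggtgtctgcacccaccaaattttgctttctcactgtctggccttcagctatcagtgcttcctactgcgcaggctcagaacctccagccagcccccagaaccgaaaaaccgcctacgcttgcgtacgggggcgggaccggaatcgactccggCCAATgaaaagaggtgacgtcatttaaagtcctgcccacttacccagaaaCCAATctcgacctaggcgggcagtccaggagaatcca
Cenpa: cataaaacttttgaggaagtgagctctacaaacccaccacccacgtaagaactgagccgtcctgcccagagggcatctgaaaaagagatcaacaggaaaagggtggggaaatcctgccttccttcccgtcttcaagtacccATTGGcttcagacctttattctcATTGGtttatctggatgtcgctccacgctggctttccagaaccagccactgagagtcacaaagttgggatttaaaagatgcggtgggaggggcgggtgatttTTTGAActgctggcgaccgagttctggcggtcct
Cenpf: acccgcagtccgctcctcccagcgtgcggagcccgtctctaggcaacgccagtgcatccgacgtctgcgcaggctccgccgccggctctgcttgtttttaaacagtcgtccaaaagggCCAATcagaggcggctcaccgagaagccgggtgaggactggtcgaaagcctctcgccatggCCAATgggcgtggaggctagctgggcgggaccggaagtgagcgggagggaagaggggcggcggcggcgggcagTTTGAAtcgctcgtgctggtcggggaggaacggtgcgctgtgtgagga
Bub1: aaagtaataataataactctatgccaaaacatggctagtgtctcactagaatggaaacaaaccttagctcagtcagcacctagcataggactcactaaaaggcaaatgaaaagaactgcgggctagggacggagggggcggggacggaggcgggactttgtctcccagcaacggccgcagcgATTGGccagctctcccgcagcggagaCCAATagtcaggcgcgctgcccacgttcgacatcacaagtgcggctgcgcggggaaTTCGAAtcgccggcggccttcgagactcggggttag

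Cenpm held the letters of all 3 motifs, with 2 CCAAT boxes upstream of a TTCGAA and an E2F match. Cenpa, Cenpf, Bub1 and Pmf1 held CCAAT and CHR letters and no E2F match. Zwint held 2 CCAAT boxes and neither of the other motifs.

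Library sizes, as gene reads scaled by the TMM factor, were 20290713 and 26262987 for the first and second control and 31031648 and 29027669 for the first and second mutant, the order kept for every set of values below. The 43 genes took 0.129% and 0.162% of the reads in the controls and 0.153% and 0.152% in the mutants. The lowest count of any member was 57 reads, and 5 members had fewer than 100 reads in a sample. The replicates of a group were not the same library, since their counts differed far beyond sampling noise, and the biological coefficient of variation was 0.208 in the controls and 0.121 in the mutants. Senp6 itself had 55.4 and 88.6 CPM (the count divided by the scaled library size) in the controls and 59.3 and 38.8 in the mutants. The groups overlapped for Senp6, and a count over the whole gene does not resolve the floxed exons. The 12 chondrocyte markers summed to 5431 and 5212 CPM in the controls and 2792 and 3305 in the mutants, and all 12 were lower in both mutant samples. The 10 skeletal muscle markers summed to 216 and 65.8 CPM in the controls and 365 and 382 in the mutants. The 4 tested osteoblast markers summed to 406, 164, 45.2 and 91.0 CPM in the same order, the 3 tested macrophage and blood markers to 9.41, 10.7, 6.25 and 8.30, and the 3 of endothelium and the 2 of epithelium to at most 5.44 in any sample. Hba-a1, a defining blood gene, was at 0 in control replicate 1, whereas the 3 tested markers of its list were all lowest in mutant replicate 1.

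Control replicate 1 stood apart, for these genes and in the counts over all genes, and is given first because it bears on many of the results. It was the lowest of the 4 samples for 33 of the 43 genes (76.7%), against 36.8% of all 14123 genes tested. Control replicate 2 was the highest for 22 of them (51.2%), against 21.8% of all genes. For 37 members the level was higher in control replicate 2 than in control replicate 1, with a median log2 difference of 0.47 against 0.00 over all genes tested, while the mutant replicates differed by a median of -0.05. In 18 members both mutant samples lay between the 2 controls.

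**Figure D1:**
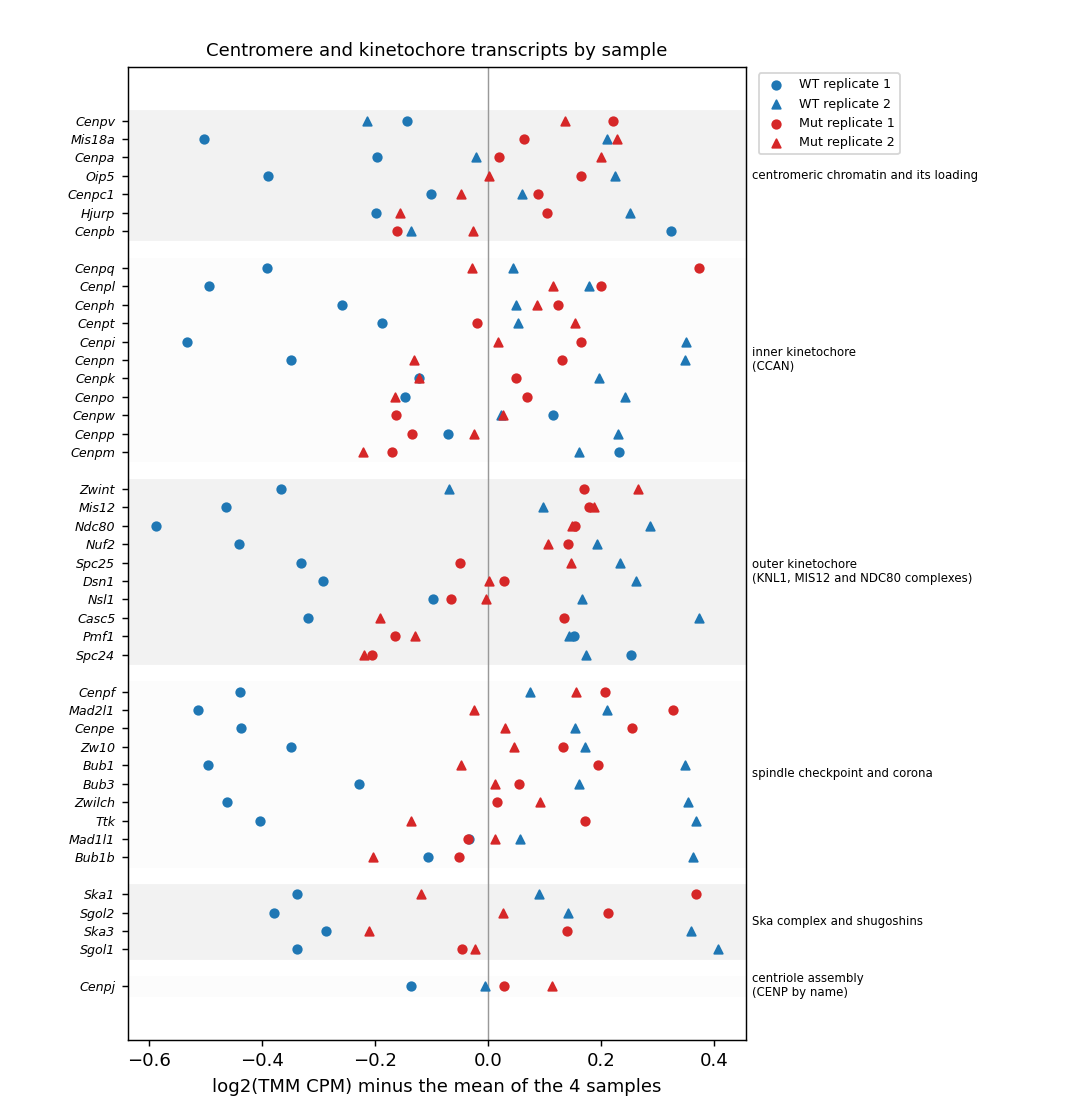
Level of each of the 43 genes in each sample, as log2(TMM CPM) minus the mean of the 4 samples, grouped by role and ordered by fold change. Circles are replicate 1 and triangles replicate 2, blue for WT and red for Mut. The blue circles (control replicate 1) lie farthest to the left in 33 of 43 rows, and only 10 rows have both red points on 1 side of both blue points.

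The question of the comparison was whether transcripts of the centromere and kinetochore differed between mutant and control chondrocytes. With edgeR's quasi-likelihood test and Benjamini-Hochberg adjustment over 14123 genes, no member passed an adjusted p of 0.05, and no gene of the whole table did (0% called higher and 0% called lower). At an unadjusted p under 0.05 stood 3 members, Spc24, Zwint and Cenpm, of 43, where 15.6% of all genes stood there. DESeq2 called no member either, though it called 3.07% of all genes higher and 1.86% lower. Without the filter on low counts no member was called, with 1.23% and 0.333% of all genes called higher and lower. Adjusted p values of the members ran from 0.225 to 0.999.

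The fold changes were small in either direction. The members' log2 fold changes, mutant over control, ran from -0.43 (Spc24, 0.745 of the control level) to 0.43 (Zwint, 1.35-fold), with a median of 0.07 against 0.01 over all genes tested. The value was above 0 for 26 members (51.4% of all genes were) and below 0 for 17. None reached 0.5 in size, whereas 20.3% of all genes did. The standard errors reached 0.30 over the members and 2.74 over all genes tested. The share over all genes is thus not matched to the members for precision. The 95% intervals of all 43 lay within log2 values of -0.77 and 0.96, which are 0.587-fold and 1.94-fold.

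The median turned on the control samples. Without control replicate 1 it was -0.13, with 32 of 43 members below 0. Without control replicate 2 it was 0.30, with 35 of 43 above 0. The sign was negative without the first and positive without the second for 25 members. Only 10 were positive in both fits and 7 negative in both. Where a group is left with 1 sample, that sample is taken to vary like the others. Without control replicate 2, 11 members passed as higher and 3 as lower, where 9.42% and 10.6% of all genes passed. The 11 were Cenpe, Cenpf, Cenpi, Mis12, Ndc80, Nuf2, Zwint, Bub1, Mad2l1, Zwilch and Sgol2, and the 3 were Spc24, Cenpm and Cenpb. Without control replicate 1, Bub1b alone passed, as lower (log2 fold change -0.49, edgeR adjusted p = 0.0484), where 3.72% of all genes passed as higher and 1.06% as lower.

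**Figure D2:**
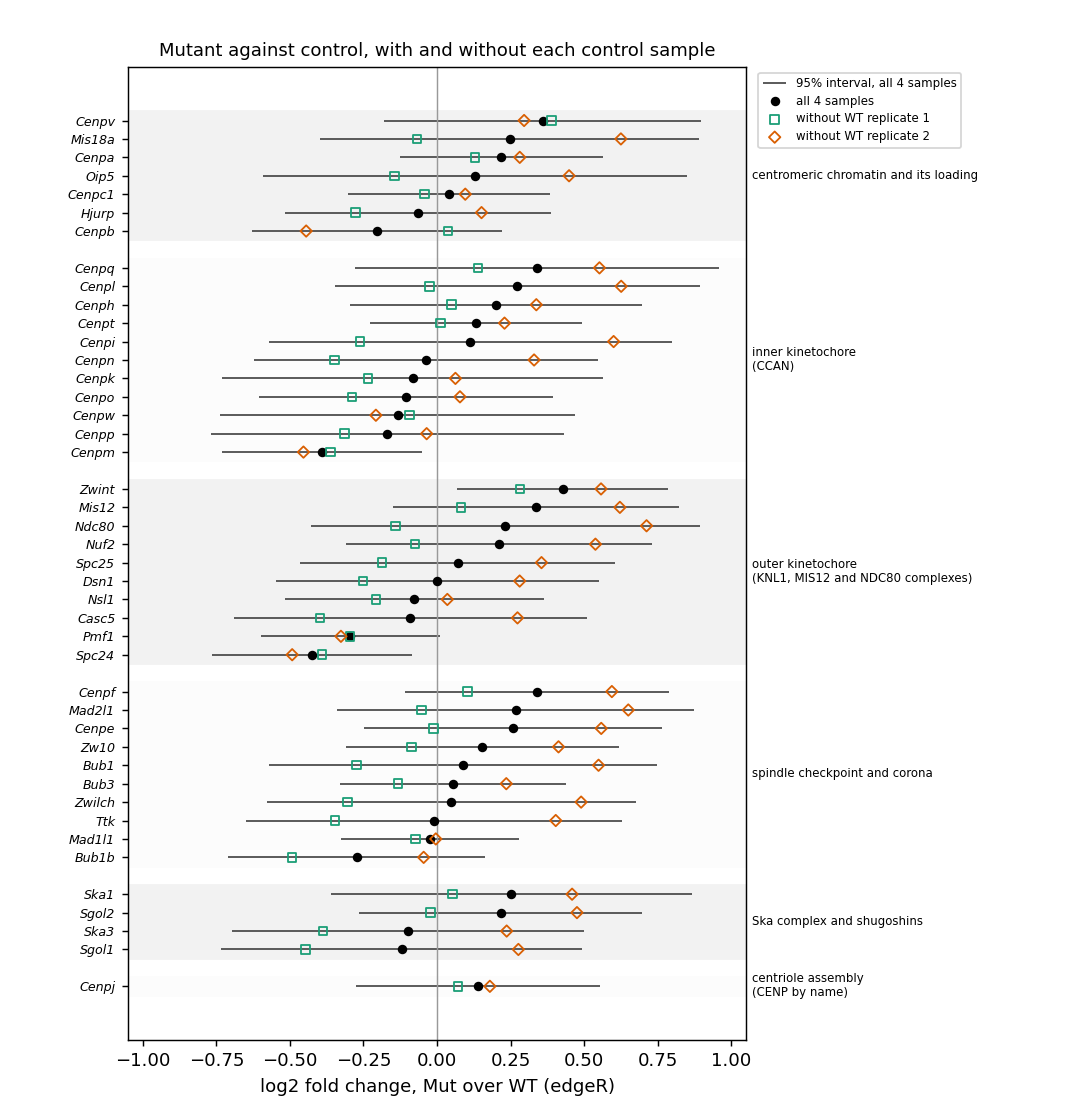
Log2 fold change of each gene, mutant over control, with all 4 samples (black, with the 95% interval), without control replicate 1 (green squares) and without control replicate 2 (orange diamonds). The intervals all lie between -0.77 and 0.96, and green and orange fall on opposite sides of 0 for most rows.

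Counted without a test, the groups did not overlap for 10 members (48.1% of all genes did not). Both mutant samples were above both controls for 7 of 43 (16.3%), where 25.4% of all genes were, and both were below for 3 of 43 (6.98%), where 22.8% were. The shares among the members were thus below those over all genes tested. The 7 were Cenpa, Cenpf, Cenph, Cenpj, Cenpv, Mis12 and Zwint, and the 3 were Spc24, Cenpm and Pmf1.

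Among the 7 genes of centromeric chromatin and its loading, the median log2 fold change was 0.13, with 5 above 0 and 2 below. Cenpa (Entrez Gene 12615) encodes the centromeric histone H3 variant itself. Its level was 38.6 and 43.6 CPM in the controls and 44.9 and 50.9 CPM in the mutants. The mutants were above both controls (41.1 ± 3.51 against 47.9 ± 4.24 CPM, SD, n = 2), and the log2 fold change was 0.22 ± 0.14 (SE, edgeR adjusted p = 0.538). Cenpv (73139), a protein of the pericentromere and the midzone, stood at 4.68 and 4.46 CPM in the controls and 6.03 and 5.68 CPM in the mutants. Its groups did not overlap, at a log2 fold change of 0.36 ± 0.22 (adjusted p = 0.514).

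The genes that load CENP-A did not share that order. Hjurp, the CENP-A chaperone, measured 53.6 and 73.2 CPM in the controls and 66.1 and 55.2 CPM in the mutants, so that both mutant samples lay between the controls. Mis18a, of the complex that licenses the loading, measured 7.20 and 11.8 CPM against 10.7 and 11.95. Its partner Oip5, the mouse form of MIS18-beta, measured 2.81 and 4.30 CPM against 4.13 and 3.69. In both of these genes control replicate 1 alone was low. About 9.67% of the exonic bases of Oip5 also lie in exons of Nusap1 on the opposite strand (GENCODE, GRCm38), and since no use of strand in the counting is given in the sources used here, such reads cannot be assigned.

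Cenpc1 encodes CENP-C, which binds CENP-A nucleosomes and holds the network above them. It was among the steadiest members, at 28.4 and 31.7 CPM in the controls and 32.4 and 29.5 CPM in the mutants (log2 fold change 0.04 ± 0.14, 95% interval -0.30 to 0.38), although 319 bases of its transcript are at least 95% identical to Gtdc1, so a part of its counts is uncertain. Cenpb, whose product binds the CENP-B box of satellite DNA, had the highest level per length of all 43 genes, with 103 and 77.6 RPKM in the controls and 75.9 and 85.6 RPKM in the mutants. Its order ran against that of most members, as control replicate 1 was the highest sample at 298 CPM, against 217, 213 and 234 CPM in control replicate 2 and the mutants.

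The 11 CCAN genes had a median log2 fold change of -0.04, 5 above 0 and 6 below. They include the CENP-H, CENP-I and CENP-K subunits that SENP6 is known to act on as proteins. Cenph (26886) measured 7.59 and 9.41 CPM in the controls and 9.89 and 9.65 CPM in the mutants. The mutants were above both controls by little (log2 fold change 0.20 ± 0.21, adjusted p = 0.705). Cenpi, on the X chromosome, measured 11.8 and 21.7 CPM against 19.1 and 17.3. Its mutant samples lay between the controls, with a log2 fold change of 0.11 ± 0.29. Mutant replicate 2 had 11354 Xist reads and the other samples at most 5, so the mutant group mixed the sexes and the control group did not. That imbalance is a limit on every gene compared here, and its part in the values was not tested. Cenpk, with the lowest mean RPKM of all members, measured 3.20 and 3.998 CPM against 3.61 and 3.20, a log2 fold change of -0.08 ± 0.27 (95% interval -0.73 to 0.56).

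Cenpm (66570), a small subunit that binds CENP-I, was the exception in this group. It stood at 25.2 and 24.0 CPM in the controls and 19.1 and 18.4 CPM in the mutants. The 2 controls were close to each other and both mutants lay below them, at 0.762 of the control level (log2 fold change -0.39 ± 0.14, edgeR unadjusted p = 0.030, adjusted p = 0.252). Itgb3bp (CENP-R), a CCAN gene outside the symbol rule, also had both mutant samples lowest, with 3.25 and 4.91 CPM in the controls and 2.93 and 3.07 CPM in the mutants. Its log2 fold change was -0.45 ± 0.30 (edgeR adjusted p = 0.542). Of other CCAN genes outside the rule, Apitd1 (CENP-S) had both mutants above both controls (log2 fold change 0.08). The groups overlapped for Mlf1ip (CENP-U) and Stra13 (CENP-X). Cenpq, of the CENP-O group, had the highest log2 fold change of the CCAN genes (0.34 ± 0.26), but its 5.52 and 7.46 CPM in the controls overlapped the 9.38 and 7.10 CPM of the mutants.

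The other CCAN genes overlapped between the groups. Cenpl, of the CENP-L and CENP-N pair, read 7.05 and 11.2 CPM in the controls and 11.4 and 10.8 in the mutants. Cenpn read 20.4 and 33.1 CPM against 28.5 and 23.7. Cenpt, whose product binds DNA and recruits NDC80, read 40.2 and 47.5 CPM against 45.2 and 51.0. Its partner Cenpw was flat, at 3.42 to 4.14 CPM in all samples. Stretches of its longest GENCODE transcript (4143 bases) are nearly identical to other transcripts. The counted gene length was 1527 bases, so whether those stretches were counted is not known and its counts may be uncertain. Cenpo and Cenpp of the CENP-O group ranged from 11.8 to 15.6 CPM and from 3.96 to 5.10 CPM, and share 19.0% and 12.3% of their exonic bases with Adcy3 and Ippk on the opposite strand.

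The outer kinetochore held the lowest and the highest fold change of all members. The median of the 10 genes was 0.04, with 6 above 0 and 4 below. Spc24 (67629) encodes the NDC80 complex subunit that, with SPC25, anchors the complex to the inner kinetochore. It measured 25.2 and 23.9 CPM in the controls and 18.4 and 18.2 CPM in the mutants. The groups did not overlap and each pair of replicates was tight (24.6 ± 0.961 against 18.3 ± 0.126 CPM, SD, n = 2), with a log2 fold change of -0.43 ± 0.14 (edgeR unadjusted p = 0.0217, adjusted p = 0.225).

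The partners of Spc24 had another order. Ndc80, which binds microtubules, measured 13.9 and 25.5 CPM in the controls and 23.2 and 23.2 CPM in the mutants. Nuf2, its dimer partner, measured 24.99 and 38.8 CPM against 37.4 and 36.5. Spc25 measured 13.2 and 19.5 CPM against 16.0 and 18.3. In all 3 of these genes both mutant samples lay between the controls. The RPKM of Spc24 over the mean RPKM of the 3 partners was 2.25 and 1.33 in the controls and 1.13 and 1.09 in the mutants.

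In the MIS12 complex, which joins CCAN to NDC80, the subunits also differed in order. Pmf1 (67037) measured 49.2 and 48.9 CPM in the controls and 39.5 and 40.5 CPM in the mutants. Both mutant samples were below both controls, at 0.815 of the control level (log2 fold change -0.29 ± 0.13, edgeR unadjusted p = 0.0555, adjusted p = 0.336). Mis12 (67139) itself measured 19.4 and 28.6 CPM in the controls and 30.3 and 30.5 CPM in the mutants, which put both mutants above both controls. Its log2 fold change was 0.34 ± 0.20 (adjusted p = 0.494) with all 4 samples, and 0.08 without control replicate 1. About 7.69% of its exonic bases overlap Derl2 on the opposite strand. Dsn1 and Nsl1, the remaining subunits, ranged from 10.0 to 14.7 CPM and from 12.3 to 14.7 CPM with overlapping groups. Pmf1 over the mean RPKM of Mis12, Dsn1 and Nsl1 was 9.60 and 6.81 in the controls and 5.79 and 5.90 in the mutants.

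The KNL1 complex has the large scaffold KNL1, encoded by Casc5, and Zwint, which helps to bring the RZZ complex of the corona. Zwint (52696) measured 49.97 and 61.4 CPM in the controls and 72.4 and 77.4 CPM in the mutants. Both mutants were above both controls, at 1.35-fold (55.7 ± 8.09 against 74.9 ± 3.51 CPM, SD, n = 2), and the log2 fold change of 0.43 ± 0.15 had an unadjusted p of 0.0261 and an edgeR adjusted p of 0.240. Casc5 measured 18.9 and 30.6 CPM in the controls and 25.9 and 20.7 CPM in the mutants. Both mutant samples of Casc5 lay between its controls. The RPKM of Zwint over that of Casc5 was 6.44 and 4.90 in the controls and 6.82 and 9.13 in the mutants.

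A further ratio was taken for Cenpm over the mean RPKM of Cenph, Cenpi and Cenpk, which gave 5.26 and 3.50 in the controls and 2.90 and 2.98 in the mutants. These ratios were among 7 that were chosen after the values were seen. For Spc24, Pmf1 and Cenpm the mutant ratios were below both controls, and for Zwint above. The mutant replicates were close together in the first 3 (1.11 ± 0.0303, 5.84 ± 0.0734 and 2.94 ± 0.0614, SD, n = 2), while the controls were spread (1.79 ± 0.650, 8.204 ± 1.97 and 4.38 ± 1.25). An exact permutation test, two-sided, gives p = 0.333 for any ratio whose groups do not overlap, the smallest that 2 against 2 samples allow, so that value adds nothing to the separation for which they are shown. In control replicate 1 the denominators were the lowest. Of the other 3 ratios, Cenpa over Hjurp was 4.55 and 3.76 in the controls and 4.29 and 5.82 in the mutants. Mad2l1 over Mad1l1 was 0.981 and 1.52 against 1.76 and 1.33. Both of these overlapped between the groups (exact permutation p = 0.667), whereas Sgol1 over Sgol2 was 0.812 and 0.949 against 0.660 and 0.762, with both mutants below both controls.

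**Figure D3:**
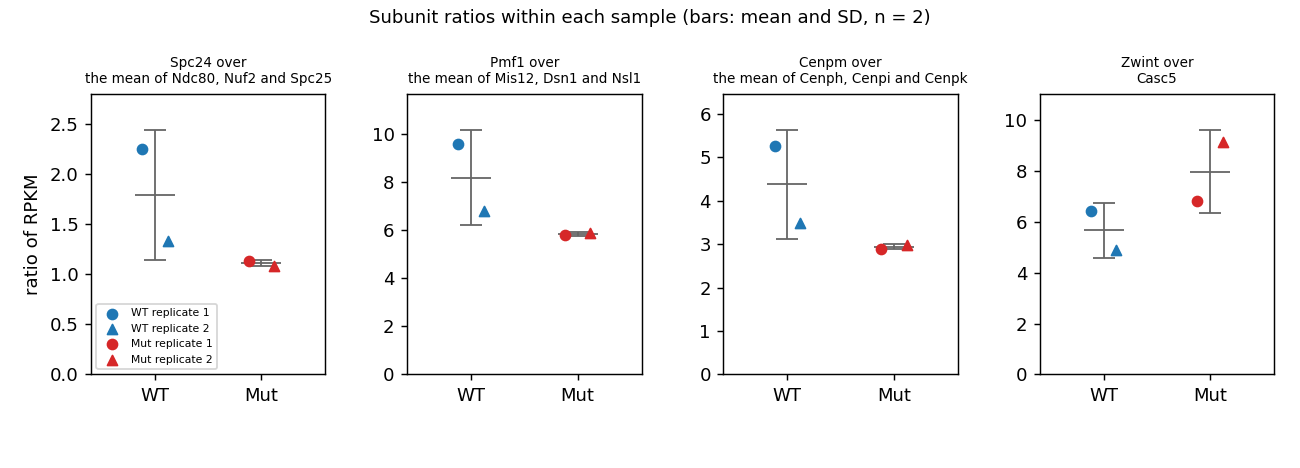
RPKM of Spc24, Pmf1, Cenpm and Zwint over that of partner subunits within each sample (y axis, ratio; each axis starts at 0). The remaining ratios are not plotted, of which Cenpa over Hjurp and Mad2l1 over Mad1l1 overlapped between the groups. Points are samples and bars the mean and SD of 2; the mutant points lie below both control points in the first 3 panels and above them in the fourth, and control replicate 1 has the highest ratio of the first 3.

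The 10 genes of the spindle checkpoint and corona had a median log2 fold change of 0.07, with 7 above 0 and 3 below. The checkpoint kinase Bub1 measured 17.3 and 31.1 CPM in the controls and 27.9 and 23.6 CPM in the mutants. Its log2 fold change was 0.09 ± 0.27 (95% interval -0.57 to 0.75), with the mutants between the controls. The pseudokinase Bub1b (BUBR1), a part of the complex that inhibits the anaphase-promoting complex, measured 70.1 and 97.1 CPM against 72.8 and 65.5. It had the lowest log2 fold change of this group (-0.27 ± 0.18, adjusted p = 0.541). Mad2l1, which encodes the MAD2 protein of the same complex, measured 37.7 and 62.3 CPM against 67.6 and 52.9. Part of its longest GENCODE transcript (454 of 7557 bases) is nearly identical to a second transcript. The counted gene length was 1725 bases, so whether that part was counted is not known and its counts may be uncertain.

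Cenpf (108000), a large protein of the corona and the nuclear envelope in late cell cycle, measured 44.1 and 62.9 CPM in the controls and 69.0 and 66.6 CPM in the mutants. Both mutants were above both controls, although control replicate 2 lay nearer to the mutants than to control replicate 1 (log2 fold change 0.34 ± 0.19, adjusted p = 0.453). The kinesin Cenpe measured 58.8 and 88.6 CPM against 95 and 81.3. The kinase Ttk (MPS1) measured 15.8 and 26.9 CPM against 23.5 and 19.0. Mutants and controls overlapped for both.

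Bub3, the partner of BUB1 and BUBR1, had the second highest level per length of the 43 genes, and its 101 CPM in control replicate 1 lay below 132, 122 and 119 CPM in the other samples. Mad1l1, which anchors MAD2, was nearly level, at 58.8 to 62.7 CPM in all 4 samples. The RZZ genes Zw10 and Zwilch were lowest in control replicate 1, at 30.3 and 16.6 CPM, and ranged from 39.8 to 43.4 and from 23.1 to 29.2 CPM in the other samples. Zwilch shares 5.93% of its exonic bases with Lctl on the opposite strand.

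The Ska complex strengthens the hold of kinetochores on microtubules, and the shugoshins protect cohesin at the centromere. None of these 4 genes separated the groups, and all 4 were lowest in control replicate 1. Ska1 measured 7.84 and 10.6 CPM in the controls and 12.8 and 9.13 CPM in the mutants, and Ska3 ranged from 14.8 to 23.2 CPM. Sgol1 measured 12.5 and 20.9 CPM against 15.3 and 15.5, a log2 fold change of -0.12 ± 0.26. Sgol2 ranged from 22.6 to 34.1 CPM, and 35% of its exonic bases overlap Kctd18 on the opposite strand. Cenpj (219103) carries the CENP name but builds centrioles. It measured 12.2 and 13.3 CPM in the controls and 13.6 and 14.5 CPM in the mutants, without overlap and with a log2 fold change of 0.14 ± 0.17 (adjusted p = 0.762).

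The median level per length over the 43 genes was 5.91 and 9.31 RPKM in the controls and 8.22 and 8.0 RPKM in the mutants. Cenpb, Bub3, Pmf1, Cenpa and Mad2l1 had the highest mean RPKM, and Cenpk, Cenpl and Oip5 the lowest. The standard errors of the log2 fold changes ran from 0.13 to 0.30 over the 43 genes.

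Related genes showed the same arrangement of samples. Of 16 further genes of the kinetochore and the chromosomal passenger complex, 15 were lowest in control replicate 1. Their median log2 fold change was 0.05, with 11 above 0 and 5 below, none past the threshold, 2 with both mutants above (Apitd1 and Ska2) and 1 with both below (Itgb3bp), and 4 were called higher without control replicate 2. Of 29 mitotic genes, 28 were lowest in control replicate 1, and the median log2 fold change was 0.18, with 26 above 0 and none past the threshold. With control replicate 1 left out that median was -0.10, and with control replicate 2 left out it was 0.51. Mki67, the proliferation antigen, measured 265 and 389 CPM in the controls and 396 and 312 CPM in the mutants. Top2a, which decatenates sister chromatids, measured 150 and 241 CPM against 205 and 199. The part of these mitotic gene levels, and of the marker levels given above, in the members' values was not tested.

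**Figure D4:**
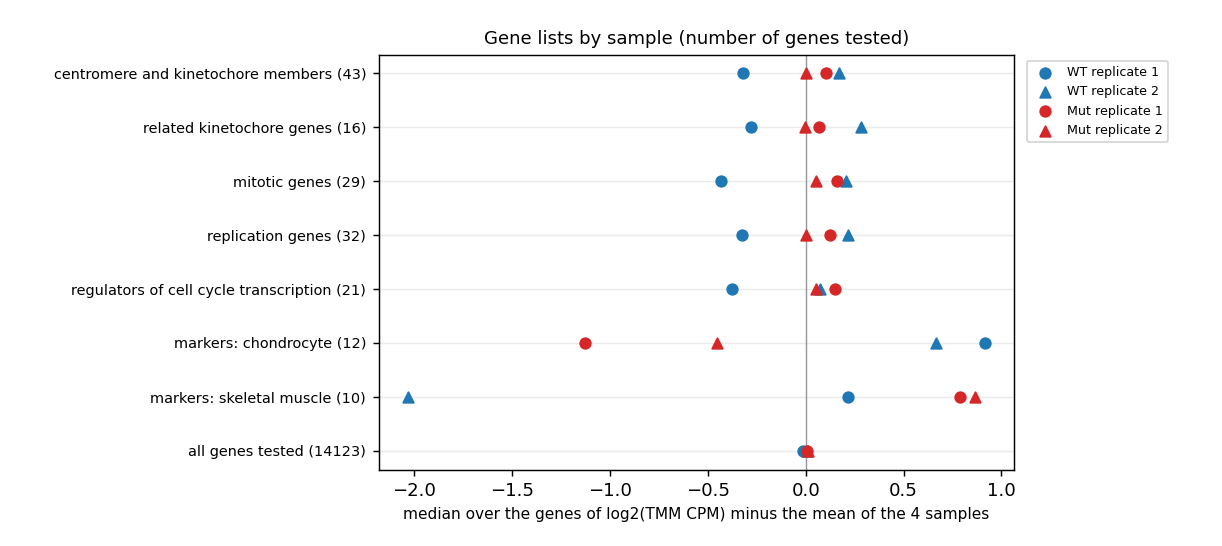
Median over the genes of each list of log2(TMM CPM) minus the mean of the 4 samples, by sample (blue WT, red Mut; circles replicate 1, triangles replicate 2). For the 43 members the medians are -0.32 and 0.17 in the controls and 0.10 and 0.00 in the mutants; the 3 other cell cycle lists and the related kinetochore genes are also lowest in control replicate 1, whereas the chondrocyte markers are higher in both controls.

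The members were also split by the letters in their promoters, as a description over genes of the same 4 samples. The median log2 difference of control replicate 2 over replicate 1 was 0.59 over the 20 genes with CHR letters (range -0.09 to 0.87) and 0.32 over the 19 without them (range -0.46 to 0.88). The ranges thus overlapped over most of their length. For CCAAT the medians were 0.49 with and 0.52 without, for E2F 0.55 and 0.49, and for CHR together with CCAAT 0.51 and 0.48. Cenpm, Pmf1 and Cenpw held CHR letters and had nearly equal levels in both controls. The median log2 fold change, mutant over control, was 0.02 with CHR letters and 0.14 without, and 0.08 and 0.13 with and without CCAAT.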

How the data were processed

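Each sample's file, as the authors deposited it, holds a raw read count per gene, and the deposited RPKM equals the count by gene length and total in 100% of genes (tolerance 0.1%). The deposited percent of gene length covered by reads was used only to describe coverage, which was at least 36.5% for every member. The submitters' processing notes name mm9 and SAMtools; the aligner, the counter and the annotation are not given in the sources used here. A gene absent from a sample was given a count of 0. Counts were fitted with edgeR 4.0.16 (R 4.3.3; quasi-likelihood test, robust, TMM) over 14123 genes that reached 10 counts in 2 or more samples, and p values were adjusted by Benjamini-Hochberg. CPM, scaled by TMM factors of 0.966 to 1.03, compare samples, and RPKM compare genes. The study's methods name no count model.

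Between replicates, the chi-square of the counts per degree of freedom was 40.8 (controls) and 20.1 (mutants). Between groups, it was 70.4 and 88.2 for control replicate 1 against the first and second mutant. For control replicate 2 it was 23.6 and 38.9, below the value between the controls. The scripts were tested on simulated data. The alternatives were DESeq2 1.42.0, RLE factors, other filters, limma 3.58.1 on log2(RPKM + 1) and log2(RPKM + 0.1), the replicate block and each sample left out. Exon overlaps and near-identical transcripts (at least 95% over 200 bases) come from GENCODE on GRCm38, since the files hold no coordinates. The members and lists were chosen with earlier results of these data known. Values in every sample are given for 12 set members, the extremes of each role and, to show complex partners, some further members. Itgb3bp, Apitd1, Ska2, Mlf1ip and Stra13 were named after their values were seen.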

Additional observations from a re-analysis of the deposited data

How the results depend on the processing

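The 24 members whose fold changes were followed kept their direction and stayed short of the threshold under DESeq2, RLE factors, both other filters, both limma fits and the replicate block. Over all 43, none passed in these fits, and 39 kept their sign. The other 4 lay near 0: Dsn1 turned negative under RLE, DESeq2 and both filters (-0.00055 to -0.013), Cenpn, Mad1l1 and Ttk turned positive in both limma fits (0.019 to 0.076), and Ttk also with the block (0.030). Leaving out 1 sample changed the sign for 12 of the 24, and the log2 fold changes then ran from -0.44 to 0.038 for Cenpb, -0.042 to 0.11 for Cenpc1, -0.26 to 0.60 for Cenpi, -0.23 to 0.062 for Cenpk, -0.27 to 0.55 for Bub1, -0.28 to 0.15 for Hjurp, -0.053 to 0.65 for Mad2l1, -0.067 to 0.62 for Mis18a, -0.14 to 0.71 for Ndc80, -0.14 to 0.45 for Oip5, -0.45 to 0.28 for Sgol1 and -0.012 to 0.47 for Ska1. Of those that kept their sign, Spc24 ran from -0.49 to -0.39, Cenpm from -0.45 to -0.36 and Pmf1 from -0.33 to -0.28. Zwint ran from 0.28 to 0.56 and Cenpv from 0.30 to 0.40. Bub1b came as near to 0 as -0.046, Cenph as 0.050, Cenpj as 0.071 and Mis12 as 0.081. The members' median log2 fold change ran from -0.13 (without control replicate 1, reversed) to 0.30 (without control replicate 2). It was 0.06 with DESeq2 and 0.15 with limma on log2(RPKM + 0.1). Members past the threshold numbered 0 to 11 as higher and 0 to 3 as lower when 1 sample was left out. Members whose groups did not overlap numbered 7 as higher and 3 or 4 as lower with all 4 samples, by the normalization and filter used. When 1 sample was left out they numbered 7 to 34 as higher and 5 to 25 as lower. A group of 1 sample separates more readily than a group of 2, and the shares over all genes were not computed there, so these counts cannot be read as a trait of the members. Such counts were not made with DESeq2 or the replicate block. Over all genes, 434 were called higher and 263 lower by DESeq2, 225 and 61 without the filter, and 96 to 1331 and 47 to 1492 when 1 sample was left out. The replicate numbers gave no sign of pairing, as deviations of same-numbered samples correlated at r = -0.0654 over all genes tested. With the replicate block, 84 genes were called higher and 33 lower, none of them a member, and the members' median was 0.10; of the cell cycle and related kinetochore lists the block called Cdkn1a alone (adjusted p = 0.0463), and of the marker lists 2 chondrocyte genes (lower) and 1 muscle gene (higher). The cause of these differences was not tested. Depth limits the least expressed members most, and 5 had fewer than 100 reads in a sample.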

Other observations

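Other cell cycle genes are given beside the kinetochore genes, and a difference between them was not tested. Of 32 replication genes, 23 had a log2 fold change above 0, the median was 0.07, and none passed the threshold of edgeR's test, while 1 had an unadjusted p under 0.05. DESeq2 called 1 of them higher (Ccne1), as did edgeR without control replicate 1, and 8 were called without control replicate 2; the median was -0.17 and 0.37 in these last fits. Ccne1, which encodes cyclin E1 of the G1/S transition, measured 22.7 and 32.3 CPM in the controls and 47.3 and 46.1 CPM in the mutants. Both mutants were above both controls (log2 fold change 0.76 ± 0.19, SE, edgeR adjusted p = 0.140). Ccne2 measured 4.78 and 9.79 CPM against 12.1 and 11.99, in the same order. Both mutants were above both controls for 4 of the 32 replication genes (12.5%), where 25.4% of all genes were. Gins2, of the replicative helicase, was the single one with both below (3.1%, where 22.8% of all genes were). It measured 23.5 and 25.1 CPM in the controls and 21.1 and 19.4 in the mutants.

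Of 21 regulators of cell cycle transcription, 7 had both mutants above both controls (33.3%, against 25.4% of all genes) and none had both below. The repressor E2f6 measured 20.8 and 26.5 CPM in the controls and 37.4 and 35.4 CPM in the mutants (log2 fold change 0.62 ± 0.16, adjusted p = 0.154). E2f7, another repressor of E2F targets, measured 24.9 and 41.2 CPM against 52.6 and 43.8. Cdkn1a, which encodes the cyclin kinase inhibitor p21, measured 116 and 163 CPM against 237 and 331 (log2 fold change 1.02 ± 0.23, adjusted p = 0.115). The other 4 were E2f3 (log2 fold change 0.24) and Foxm1 (0.32), which activate transcription, Tfdp1 (0.22) and the repressor Rb1 (0.44). None of the 21 passed the threshold with edgeR on all 4 samples and no block, and 3 had an unadjusted p under 0.05. Cdkn1a was called higher by DESeq2 and by edgeR with the replicate block. The median log2 fold change of the 21 was 0.13 with all 4 samples, 0.005 without control replicate 1 and 0.43 without control replicate 2. The lists were chosen with earlier results known, and the genes other than Cdkn1a were named after their values were seen.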
